A study of Mus musculus with 36 samples.

Results

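The genes described here build and control the machine that licenses DNA replication origins: the 6 subunits of the MCM helicase (Mcm2, Mcm3, Mcm4, Mcm5, Mcm6 and Mcm7), its partner Mcm10, the loading factors Cdt1 and Cdc6, and geminin (Gmnn), the inhibitor of Cdt1. They were picked by gene symbol, with earlier results of these data known, and all 10 had a row among the 12762 genes of the expression table. They were measured by mRNA-seq in B3, a line of dividing mouse B cell precursors, in 36 libraries, 3 for each of 12 groups. The Ikaros line carries a retroviral vector encoding HA-tagged Ikaros fused to the hormone-binding ERt2 domain, followed by an IRES and GFP, so that 4-hydroxy-tamoxifen (4-OHT) moves the fused protein into the nucleus, whereas the vector of the control line encodes ERt2, IRES and GFP without Ikaros. Both lines were collected at 0, 2, 6, 12, 18 and 24 h, and both received 0.5 uM 4-OHT at the times after 0 h. The labels list the same dose at 0 h, while according to the methods section those cells were untreated and collected separately, so a comparison with 0 h also compares collection occasions. The replicates were culture batches 1, 2 and 4 at 0 h and batches 1, 3 and 4 afterwards. Transduced cells were sorted for GFP and grown briefly before freezing, so each line was a sorted population.

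Before S phase, the origin recognition complex marks the sites where replication can start, and Cdc6 and Cdt1 bring the MCM helicase to them. The ring of subunits waits there inactive until kinases and further factors, Mcm10 among them, turn it into the moving helicase of the fork. Geminin and the breakdown of Cdt1 in S phase keep an origin from being licensed again in the same cycle. Many of these genes are known targets of the E2F family, which raises their transcription as cells prepare to divide, and large pre-B cells leave the cycle as they mature into small resting ones. In bulk RNA, fewer dividing cells and less RNA per cell cannot be told apart.

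The start-site windows of the genes were searched for elements that such genes are known for. RefSeq entries on GRCm38.p6, from 250 bases before to 50 bases after the start site, existed for 8 of the 10 genes, and Mcm4 and Gmnn had none. An E2F-like site was searched on both strands as TTTCCCGC, TTTCGCGC, TTTGCCGC or TTTGGCGC. It stood in a window of 6 of the 8 genes (Mcm3, Mcm5, Mcm6, Mcm7, Cdt1 and Cdc6), against 4.88% of the 8586 genes of the table with a window. Mcm7 had a pair of windows, of which 1 held the site, and over all 32851 windows the share was 2.26%. The CCAAT box (CCAAT, both strands) also stood in windows of 6 of the 8 genes, against 43.6% of the table's genes. The windows below are shown because they hold these letters, in capitals, read 5′ to 3′ on the strand of the gene. In Mcm6 and Mcm5 a pair of E2F-like sites on opposite strands overlap, and a second CCAAT box lies nearer to the start site.
Mcm6, chr1:128359706-128359825, reverse strand: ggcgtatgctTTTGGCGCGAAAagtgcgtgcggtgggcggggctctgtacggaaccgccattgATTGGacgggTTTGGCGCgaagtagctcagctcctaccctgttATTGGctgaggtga
Mcm5, chr8:75109349-75109508, forward strand: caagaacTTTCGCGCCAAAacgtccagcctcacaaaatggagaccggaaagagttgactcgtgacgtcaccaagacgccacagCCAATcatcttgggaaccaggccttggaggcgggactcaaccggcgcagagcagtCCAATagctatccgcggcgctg
Mcm10 had no E2F-like site in its window but carried CCAAT boxes in forward orientation, and is shown for that contrast.
Mcm10, chr2:5012792-5012901, reverse strand: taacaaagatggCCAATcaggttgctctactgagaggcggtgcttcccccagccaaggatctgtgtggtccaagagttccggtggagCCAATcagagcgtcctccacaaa
In the other windows the E2F-like letters lay at different distances from the start site. Mcm3 held both orientations close together, and Cdc6 and Mcm7 a single reverse site each in the bases shown. The sites of Mcm3 (from bases 20 and 39) and of Cdt1 (from base 33) lay after the start site.
Mcm3, chr1:20820266-20820295, reverse strand: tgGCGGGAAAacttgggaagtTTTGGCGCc
Cdc6, chr11:98908002-98908031, forward strand: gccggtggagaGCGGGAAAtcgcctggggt
Mcm7, chr5:138172030-138172059, reverse strand: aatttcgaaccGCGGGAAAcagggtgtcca
Cdt1, chr8:122568035-122568064, forward strand: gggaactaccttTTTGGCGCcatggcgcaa
The window of Mcm2 held neither an E2F-like site nor any other searched letters except a reverse CCAAT and TTTGAA. The letters TGGGAA, which contain a core that Ikaros is known to bind, were found for 5 of 8 genes (Mcm3, Mcm5, Mcm7, Mcm10 and Cdc6) against 26.0% of the table's genes. The E-box CACGTG was found for 0 of 8, against 11.9%, and the cell cycle homology letters TTTGAA or TTCGAA were found for 2 of 8, Mcm2 and Mcm7, against 16.5%. Binding was not measured here, and a match of letters is a description only.

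Values are log2 expression as deposited, after the authors' correction for GC content, gene length and library preparation. The lowest value was 1, and a shift by 1 constant for the whole table was assumed, since the methods describe none. Under that assumption differences can be read as log2 fold changes, and levels only relative to other genes. Library depth is unknown, since no counts were used. Ikzf1, the gene of Ikaros (GRCm38 chromosome 11, 11685003 to 11772926), checked the labels: every Ikaros library lay at 19.63 or above and every control library at 14.85 or below. The gap was there already at 0 h, at 5.19 on the log2 scale. Of 12 B lineage markers all were measured, with Cd79a at group means between 17.97 and 18.61 and Pax5 between 15.94 and 17.25. Of the markers of other lineages, 1 of 7 for T cells, 3 of 8 for myeloid cells and 5 of 7 for erythroid cells had a row. The mean log2 level of the measured myeloid markers lay between 6.99 and 7.84 over the control groups and between 7.93 and 8.64 over the Ikaros groups, and that of the erythroid markers between 9.33 and 9.67 and between 8.50 and 10.21. Their part in the differences reported here was not tested.

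The helicase subunits were among the most strongly expressed genes of these cells. After the length correction, the mean of each of Mcm2 to Mcm7 over all libraries exceeded that of 96.2% to 97.9% of the genes, with Mcm5 the highest and Mcm7 the lowest of the 6. Cdt1 exceeded 94.9% of the genes, Mcm10 81.3%, Cdc6 71.3% and Gmnn 67.6%. The subunits work together as a ring, whereas the loaders and geminin act on that ring at set moments of the cycle.

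**Figure D1:**
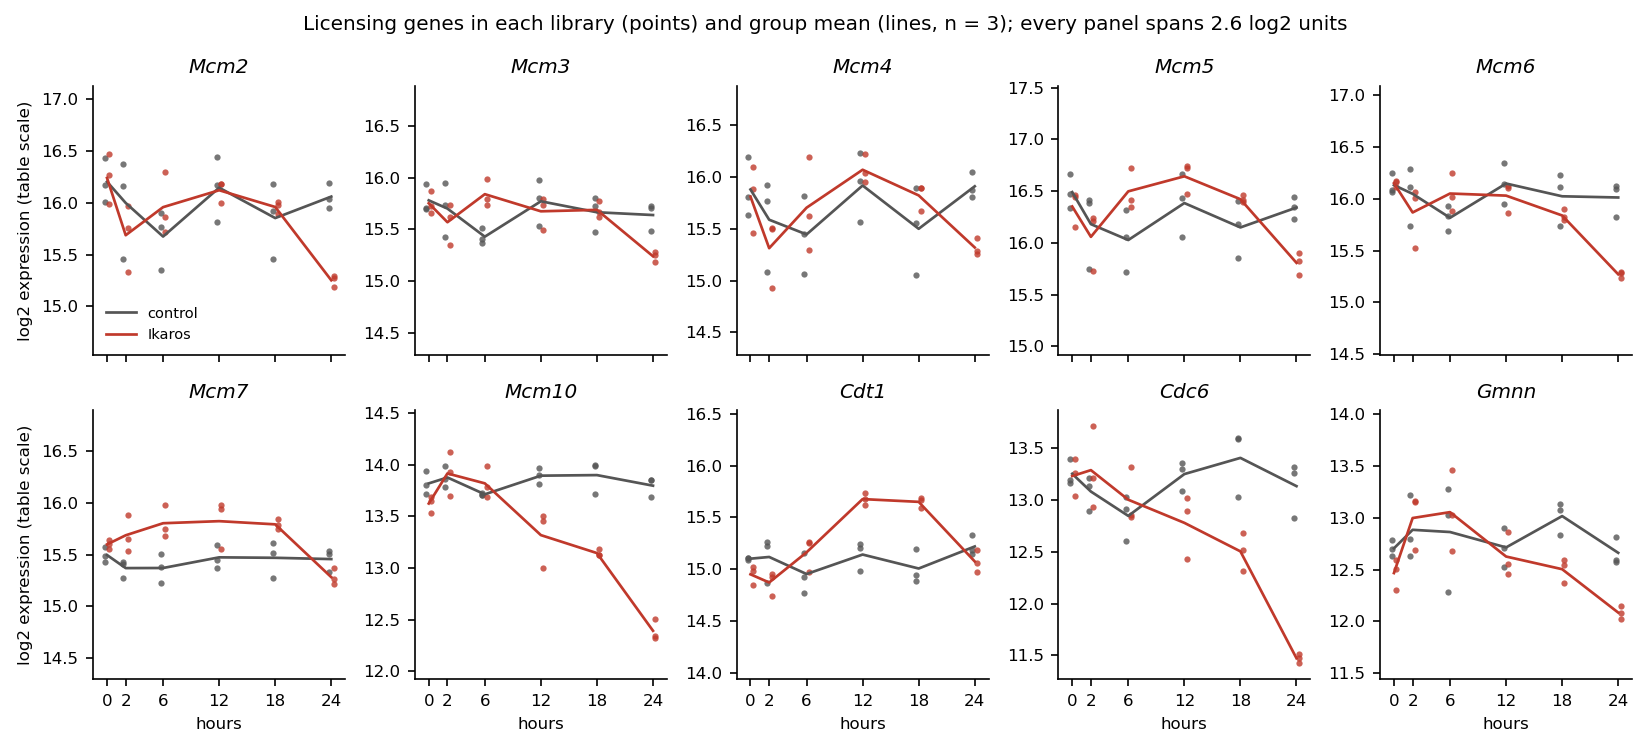
Log2 expression on the scale of the table (vertical axis, 2.6 log2 units in every panel) against hours (horizontal axis) for the 10 licensing genes, with a point for each library and a line through the mean of the 3 libraries of a group, control in grey and Ikaros in red. Cdc6 and Mcm10 part from the control after 6 h, and Cdt1 lies above it at 12 and 18 h. The mean of Mcm7 lies above the control from 2 to 18 h, and the subunit means of Ikaros cells are lower at 24 h than at 18 h.

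At 24 h the licensing genes were lower in Ikaros cells than in control cells. A gene was called at a limma adjusted p under 0.05 over all 12762 genes. By that rule 8 of the 10 were lower and none was higher, in a comparison where 62.9% of all genes were called and 31.9% were called lower. The median difference of the 10 was -0.58 on the log2 scale, against -0.01 over all genes. The Ikaros libraries lay wholly below the control libraries for the same number, 8 of 10, and this was so for 36.1% of all genes.

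Cdc6, the ATPase that loads the helicase with Cdt1, differed most. Its values at 24 h were 13.26, 13.32 and 12.83 in the control libraries and 11.43, 11.48 and 11.51 in the Ikaros libraries. The groups were far apart, and the Ikaros libraries lay close together. The difference was -1.66 ± 0.19 (SE, n = 3 per group), or 3.17-fold lower, with a limma adjusted p of 2.69e-08. Mcm10, which joins the helicase when it is switched on at the origin, had values of 13.85, 13.86 and 13.69 in control and 12.33, 12.51 and 12.34 in Ikaros cells. Again no library of one line came near the other, and the difference was -1.40 ± 0.12 (SE), or 2.64-fold lower, with a limma adjusted p of 6.49e-11.

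The helicase subunits differed by less, and not equally. Mcm2, the subunit that also carries a docking tail for histones, was at 16.19, 16.03 and 15.96 in control and at 15.29, 15.27 and 15.19 in Ikaros libraries. Mcm6, which lies next to Mcm2 in the ring, was at 16.12, 16.10 and 15.82 in control and at 15.29, 15.29 and 15.24 in Ikaros libraries. In both genes the Ikaros libraries were almost alike and wholly below the control. The difference of Mcm2 was -0.81 ± 0.22 (SE), with a limma adjusted p of 0.00205, and that of Mcm6 was -0.74 ± 0.15, with a limma adjusted p of 9.02e-05. For Mcm4, a subunit of the core that has the helicase activity, the difference was -0.59 ± 0.25, for Mcm5 -0.53 ± 0.19 and for Mcm3 -0.40 ± 0.13, with limma adjusted p of 0.0432, 0.0143 and 0.0100.

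Mcm7 and Cdt1 did not pass the test at 24 h. Mcm7, at 15.53, 15.51 and 15.33 in control and 15.37, 15.21 and 15.26 in Ikaros libraries, had overlapping groups and a difference of -0.17 ± 0.11 (limma adjusted p of 0.182). Cdt1 was at 15.33, 15.14 and 15.19 in control and at 15.19, 14.98 and 15.06 in Ikaros libraries, again with overlap, and its difference was -0.14 ± 0.11 (limma adjusted p of 0.268). Gmnn, the inhibitor of Cdt1, was at 12.60, 12.57 and 12.82 in control and at 12.08, 12.02 and 12.15 in Ikaros cells. Its groups did not overlap, with a difference of -0.58 ± 0.20 (limma adjusted p of 0.0147). Without replicate 2 the calls at 24 h dropped from 8 to 3 (Mcm6, Mcm10 and Cdc6) and without replicate 1 to 5. Over all 12762 genes, 6248 and 6576 were called in these fits, against 8024 with all libraries. All 10 differences stayed negative in each of these fits.

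**Figure D2:**
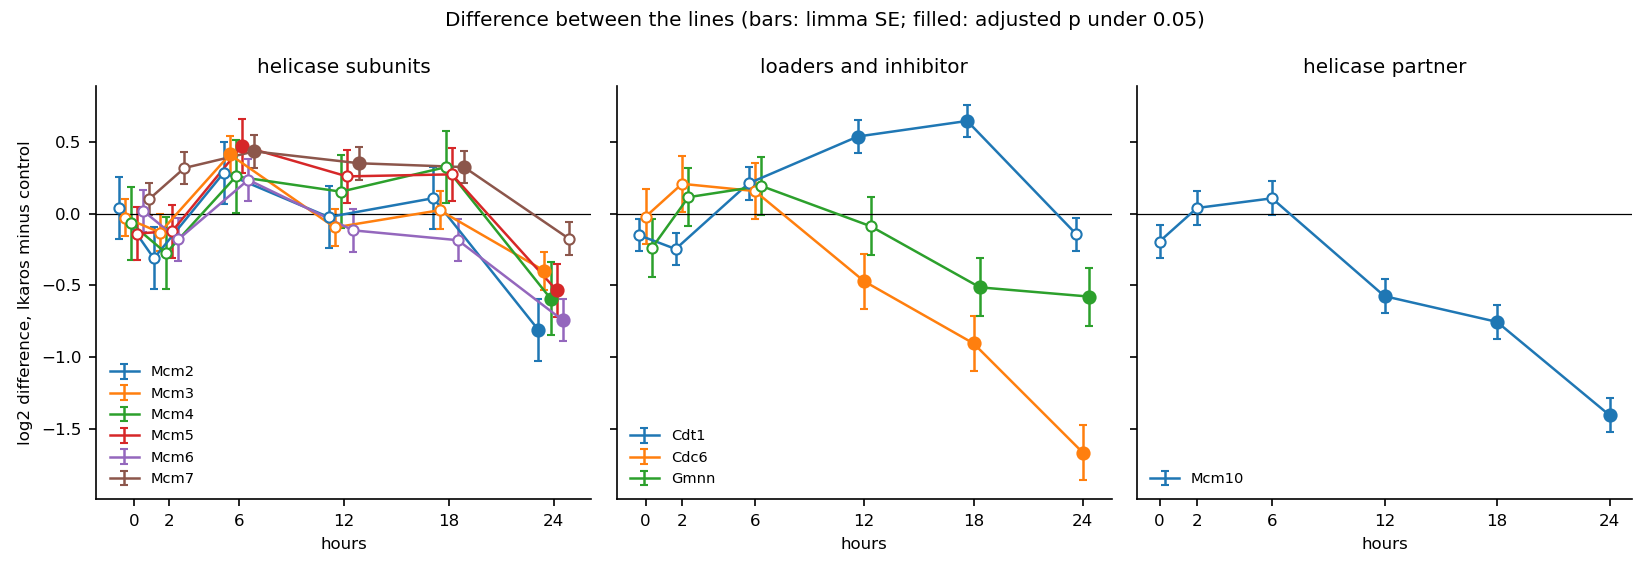
Log2 difference of Ikaros minus control (vertical axis) against hours (horizontal axis), with bars for the limma SE and filled points where the adjusted p was under 0.05, for the helicase subunits (left), the loaders and geminin (middle) and Mcm10 (right). The subunits cross from values up to 0.47 at 6 h to values down to -0.81 at 24 h, Cdc6 and Mcm10 decline from 12 h on, and Cdt1 reaches 0.64 at 18 h.

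The path to 24 h differed between the genes. At 0 h none of the 10 passed the test, where 8.33% of all genes did, and none had an unadjusted p under 0.05. All Ikaros libraries nevertheless lay below all control libraries for 3 of the 10 at 0 h (Mcm10, Cdt1 and Gmnn), as they did for 18.4% of all genes. At 2 h none passed either, with 19.1% of all genes called and 2 of the 10 at an unadjusted p under 0.05 by limma. These were Mcm7, at 0.32 ± 0.11 with an adjusted p just above the threshold, and Cdt1, at -0.25 ± 0.11 with an adjusted p of 0.135. When libraries were paired by culture batch, as the labels number them (a replicate block), both passed, at limma adjusted p of 0.0134 and 0.0423, in a fit that called 22.9% of all genes.

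At 6 h all 10 differences were positive, from 0.11 (Mcm10) to 0.47 (Mcm5), and 3 subunits were higher in Ikaros cells, against 37.3% of all genes called and 18.1% called higher. Mcm3 had values of 15.51, 15.41 and 15.37 in control and 15.99, 15.73 and 15.79 in Ikaros libraries. Mcm7 had 15.51, 15.38 and 15.22 in control and 15.98, 15.75 and 15.68 in Ikaros libraries. For both, every Ikaros library was above every control library. The differences were 0.41 ± 0.13 for Mcm3 and 0.43 ± 0.11 for Mcm7, with limma adjusted p of 0.0152 and 0.00377, and that of Mcm5 was 0.47 ± 0.19 with an adjusted p of 0.0476. All 3 calls were lost without replicate 2, and also in a fit of the 6 h libraries alone. The median of the 10 was 0.25 against -0.01 over all genes.

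In the control line, 9 of the 10 means were below those of 0 h at 6 h, down to -0.53 (Mcm2), although none passed the test, where 5.10% of all genes did; 5 had an unadjusted p under 0.05 by limma. With the replicate block, 5 subunits passed: Mcm2 at -0.66, Mcm3 at -0.41, Mcm4 at -0.61, Mcm5 at -0.57 and Mcm6 at -0.37, with limma adjusted p between 0.0138 and 0.0376, while the share of all genes called rose to 20.3%. In Ikaros cells at 6 h, the corresponding differences from 0 h of the 6 subunits ranged from -0.28 to 0.20 and none passed. The change of the line difference from 0 h to 6 h was not called for any of the 10, with 15.9% of all genes called and 4 of the 10 at an unadjusted p under 0.05. With the replicate block it was called for 3, Mcm3, Mcm5 and Cdt1, and for 20.1% of all genes. In the same block fit, Ikaros cells at 2 h against 0 h had 5 calls in place of 0 (Mcm2, Mcm4, Mcm5 and Mcm6 lower, Gmnn higher). There 29.1% of all genes were called with the block and 19.2% without it. Batch 2 was sampled only at 0 h and batch 3 only later, so the block links 0 h to later times through batches 1 and 4 alone. The block takes the shift of a batch as constant, but the order of these batches changed. For Mcm2 in control cells batch 4 was above batch 1 at 0 h (16.43 and 16.17) and below it at 6 h (15.35 and 15.90). The 0 h cells were also obtained separately, so an equal batch number at 0 h and later is not shown to mean the same culture. Block calls of a line against its own 0 h carry both limits, and the link they rest on was not tested.

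At 12 and 18 h the loaders differed from the control in opposite directions. Cdt1, the loader that geminin binds, was at 15.20, 15.24 and 14.98 in control and 15.74, 15.62 and 15.67 in Ikaros libraries at 12 h. At 18 h it was at 15.20, 14.94 and 14.88 in control and at 15.67, 15.69 and 15.59 in Ikaros libraries. Every Ikaros library was above every control library at both times. The differences were 0.54 ± 0.11 and 0.64 ± 0.11 (SE), or 1.45-fold and 1.56-fold higher, with limma adjusted p of 0.000305 and 2.03e-05.

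Cdc6 fell below the control over the same hours. At 18 h its values were 13.61, 13.59 and 13.03 in control and 12.52, 12.68 and 12.31 in Ikaros libraries, with no overlap. The difference grew from -0.47 ± 0.19 at 12 h, which 4 of 8 alternative fits did not call, to -0.90 ± 0.19 at 18 h, with limma adjusted p of 0.0473 and 0.000242. Mcm10 was already apart at 12 h, with 13.90, 13.82 and 13.96 in control and 13.51, 13.45 and 13.00 in Ikaros libraries. Its differences were -0.57 ± 0.12 at 12 h and -0.75 ± 0.12 at 18 h, with limma adjusted p of 0.000228 and 4.18e-06. All Ikaros libraries of Mcm10 were below all control libraries at both times.

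Over the 10 genes, 2 were higher (Mcm7 and Cdt1) and 2 lower (Mcm10 and Cdc6) at 12 h, with 45.8% of all genes called, 23.0% higher and 22.8% lower. At 18 h the same 2 were higher, and Gmnn joined the lower ones, with 58.2% of all genes called, 29.0% higher and 29.2% lower. Gmnn at 18 h was at 12.84, 13.14 and 13.08 in control and 12.37, 12.54 and 12.60 in Ikaros libraries. The difference was -0.51 ± 0.20 with a limma adjusted p of 0.0311. Against its own 0 h, Gmnn at 18 h was at 0.04 in Ikaros cells and 0.31 in control cells, neither of them called. The remaining 5 subunits, Mcm2 to Mcm6, passed the test at neither time, and their differences at 18 h ran from -0.19 (Mcm6) to 0.32 (Mcm4). Mcm7 stayed higher, at 0.35 ± 0.11 at 12 h and 0.32 ± 0.11 at 18 h, with limma adjusted p of 0.0131 and 0.0165, and each of these calls was kept in 5 of 8 alternative fits. The Mcm7 gene (chromosome 5, 138164583 to 138172422, reverse strand) overlaps Cops6 and Ap4m1 on the opposite strand and hosts Mir25, Mir93 and Mir106b, and whether counting used strand is not given in the sources used here. Ap4m1 itself differed by 0.47 at 12 h and 0.48 at 18 h, and Cops6 by 0.35 at 12 h, so reads shared with these neighbours cannot be told apart from Mcm7 here. Likewise Cdt1 lies within the span of the readthrough gene Gm20388.

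In the Ikaros line, 2 genes had moved between 6 and 12 h, Cdt1 up by 0.51 ± 0.11 and Mcm10 at -0.50 ± 0.12, with 20.8% of all genes called. From 2 to 6 h and from 12 to 18 h no member was called, against 11.2% and 25.5% of all genes, with 3 and 0 of the 10 at an unadjusted p under 0.05 by limma. Under the replicate block Mcm5 and Cdt1 were higher at 6 h than at 2 h, where 15.0% of all genes were called. Most subunits fell late, between 18 and 24 h, within the Ikaros line itself. Ikaros cells at 24 h against 18 h had 7 of the 10 lower and none higher, whereas 5.77% of all genes were called and 4.13% were called lower. The median of the 10 was -0.57. Cdc6 changed by -1.03 ± 0.19 (SE), Mcm10 by -0.75 ± 0.12, Mcm5 by -0.62 ± 0.19, Cdt1 by -0.58 ± 0.11, Mcm6 by -0.57 ± 0.15, Mcm7 by -0.51 ± 0.11 and Mcm3 by -0.45 ± 0.13, with limma adjusted p between 0.00018 and 0.0474. Mcm2 at -0.71 ± 0.22 (adjusted p of 0.0512, and 0.00653 with the replicate block, which called 8.43% of all genes), Mcm4 at -0.50 ± 0.25 and Gmnn at -0.42 ± 0.20 did not pass.

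Per library the subunits were followed by their mean. The mean of Mcm2 to Mcm7 was 15.92 ± 0.05 (SD, n = 3) in Ikaros cells at 18 h and 15.36 ± 0.05 at 24 h. In control cells it was 15.78 ± 0.28 at 18 h and 15.90 ± 0.12 at 24 h. The Ikaros libraries of a time were thus close together at both times, and the control libraries were spread. Control cells at 24 h against 18 h had 0 calls among all 12762 genes (0%) and no member at an unadjusted p under 0.05 by limma. The step in the Ikaros line depended on the libraries used, since without replicate 2 no member passed (28 genes of the table did, and 5 members had an unadjusted p under 0.05) and without replicate 1 only Mcm10 did. Its sizes moved little, with all 10 values negative, from -0.95 to -0.37 without replicate 2 and from -1.003 to -0.46 without replicate 1.

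The change of the line difference between 18 and 24 h was tested itself, a comparison added after values had been seen. It was called for 2 of 10, Mcm10 at -0.65 ± 0.17 and Cdt1 at -0.79 ± 0.16 (limma adjusted p of 0.0331 and 0.00749), against 2.63% of all genes called and 1.92% called lower. Mcm2 had a change of -0.92 ± 0.31 and Mcm4 of -0.91 ± 0.36 without passing. With the replicate block 6 passed, namely Mcm2, Mcm5, Mcm6, Mcm7, Mcm10 and Cdt1, with 4.39% of all genes called, while no member passed without replicate 1, without replicate 2 or with only these groups fitted. Gmnn, at -0.06 ± 0.28, had the smallest change.

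**Figure D3:**
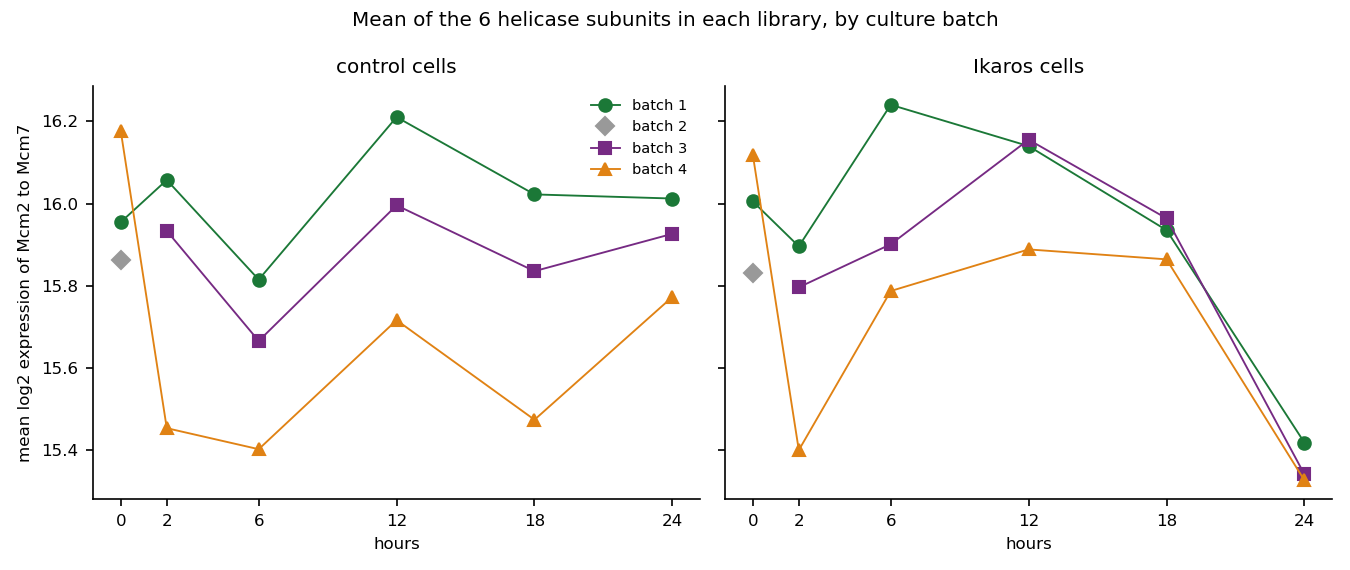
Mean log2 expression of Mcm2 to Mcm7 (vertical axis) in each library against hours (horizontal axis), with a symbol and line for each culture batch, in control cells (left) and Ikaros cells (right). Batch 4 is the highest at 0 h and the lowest at every later time, batch 1 is above batch 4 at all later times, and in Ikaros cells the batches lie close together at 18 and 24 h.

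The culture batches differed in the level of these genes. Over the 10 groups from 2 to 24 h, batch 1 was above batch 4 in all 10 for Mcm2, Mcm3, Mcm4, Mcm5, Mcm6 and Cdt1 and in 9 for Mcm7, and for Mcm2 the order from batch 1 to batch 3 to batch 4 held in all 10. The median excess of batch 1 over batch 4 was 0.63 for Mcm4 and 0.56 for Mcm2, as large as many differences between the lines. Gmnn ran the other way, with batch 1 below batch 4 in 8 of 10 groups and a median of -0.23. Within a batch the differences between the lines at 24 h were negative in all 3 batches for all 10 genes, from -1.84 to -1.31 for Cdc6, from -1.52 to -1.34 for Mcm10, from -0.90 to -0.76 for Mcm2 and from -0.29 to -0.07 for Mcm7. At 18 h Cdt1 was higher in all 3 batches, by 0.48 to 0.75, and Cdc6 lower in all 3, by -1.09 to -0.71, whereas Mcm2 ran from -0.17 to 0.44.

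Against the 0 h difference between the lines, 4 of 10 genes were lower at 24 h, with 48.4% of all genes called and 24.2% lower. These were Cdc6 at -1.64 ± 0.27, Mcm10 at -1.21 ± 0.17, Mcm2 at -0.85 ± 0.31 and Mcm6 at -0.76 ± 0.21, with limma adjusted p of 1.53e-05, 9.90e-07, 0.0241 and 0.00364. Mcm3 also passed with the replicate block, at -0.37 with a limma adjusted p of 0.0433, and 51.9% of all genes were called. At 18 h Cdt1 was higher by 0.80 ± 0.16, and Mcm10 and Cdc6 were lower by -0.56 ± 0.17 and -0.88 ± 0.27, 3 of 10 against 43.0% of all genes. At 12 h only Cdt1 had changed, by 0.69 ± 0.16 (29.7% of all genes), and at 2 h none had (3.10% of all genes, and 0 of 10 at an unadjusted p under 0.05 by limma). From 2 h to 24 h, with the same batches at both times, 5 of 10 were called, against 47.3% of all genes in either direction. All 5 were lower: Cdc6, Mcm10, Gmnn at -0.69 ± 0.28, Mcm6 at -0.56 ± 0.21 and Mcm7 at -0.49 ± 0.16. An F test by limma of all 5 changes against 0 h together called 8 of 10, all but Mcm4 and Gmnn, against 59.8% of all genes.

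Each line was also compared with its own 0 h. In Ikaros cells at 24 h, 7 of 10 had fallen, with 60.6% of all genes called and 29.6% lower. The log2 changes were -1.76 for Cdc6, -1.23 for Mcm10, -0.99 for Mcm2, -0.88 for Mcm6, -0.54 for Mcm5, -0.51 for Mcm3 and -0.32 for Mcm7. Mcm4 passed as well with the replicate block, at -0.67 with a limma adjusted p of 0.00634, and 62.2% of all genes were called. Cdt1 had risen by 0.73 at 12 h and 0.70 at 18 h and was 0.12 ± 0.11 from its 0 h level at 24 h (limma adjusted p of 0.348). Of the 10, 1 was called at 6 h (Gmnn, higher by 0.59), 2 at 12 h and 3 at 18 h, against 32.8%, 46.1% and 54.6% of all genes. With the replicate block the count at 12 h was 3, with Cdc6 added (48.7% of all genes). The count at 18 h was 5 with the block, with Mcm2 and Mcm6 added (55.8% of all genes). Block calls against 0 h link the times through batches 1 and 4 alone, as said above. In control cells no member was called at 2, 12, 18 or 24 h, where 0.0470%, 0.0549%, 0.478% and 0.470% of all genes were, and 0 of the 10 had an unadjusted p under 0.05 by limma at these times.

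The levels of the subunits went together over the 12 group means, which share lines, batches and normalization, so that these correlations are a description. Within Mcm2 to Mcm7 the 15 pairs had Pearson's r between 0.34 and 0.93 with a median of 0.73. Correlated with the mean of the other subunits, Mcm5 (0.94), Mcm2 (0.92) and Mcm3 (0.89) were closest and Mcm7 (0.51) the farthest. Against the mean of the 6 subunits Cdc6 had 0.62, Mcm10 0.51, Cdt1 0.45 and Gmnn 0.29. Among all other genes of the table the highest correlations with the subunit mean were those of E2f8 (0.922), a repressor of the E2F family that is itself made in S phase, Hmx2 (0.920), Bag4 (0.919), Rnf26 (0.909), Dnajc9 (0.908), a chaperone of histones H3 and H4, and Arhgap19 (0.905). Between the lines at 24 h, 4 of these 6 were lower, E2f8 at -1.07, Dnajc9 at -0.58, Arhgap19 at -0.46 and Rnf26 at -0.38 on the log2 scale, while Bag4 at -0.42 and Hmx2 at -0.38 did not pass (limma adjusted p of 0.0589 and 0.0815). The group means that chose these genes include those of 24 h.

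The level of Cdt1 relative to its inhibitor differed between the lines later in the series. On the log2 scale Cdt1 minus Gmnn began at 2.48 ± 0.23 (SD, n = 3) at 0 h, stood lower in the next samples with 1.87 ± 0.33 at 2 h and 2.11 ± 0.54 by 6 h, and was then 3.05 ± 0.17 at 12 h, followed by 3.15 ± 0.15 at 18 h and finally 2.99 ± 0.10 at 24 h in Ikaros cells. The control values were 2.40 ± 0.08, 2.23 ± 0.51, 2.09 ± 0.71, 2.43 ± 0.31, 1.99 ± 0.32 and 2.56 ± 0.18 at the same times, the largest gap between the lines being at 18 h. Cdc6 minus the subunit mean in Ikaros cells was -2.75 ± 0.28 before induction. It was -2.41 ± 0.20, -2.97 ± 0.08, -3.28 ± 0.17, -3.42 ± 0.13 and -3.89 ± 0.09 after 2, 6, 12, 18 and 24 h. In control cells the values from 0 h to 24 h were -2.74 ± 0.07, -2.73 ± 0.15, -2.78 ± 0.38, -2.72 ± 0.11, -2.37 ± 0.11 and -2.77 ± 0.17. Both measures are given here without a test.

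**Figure D4:**
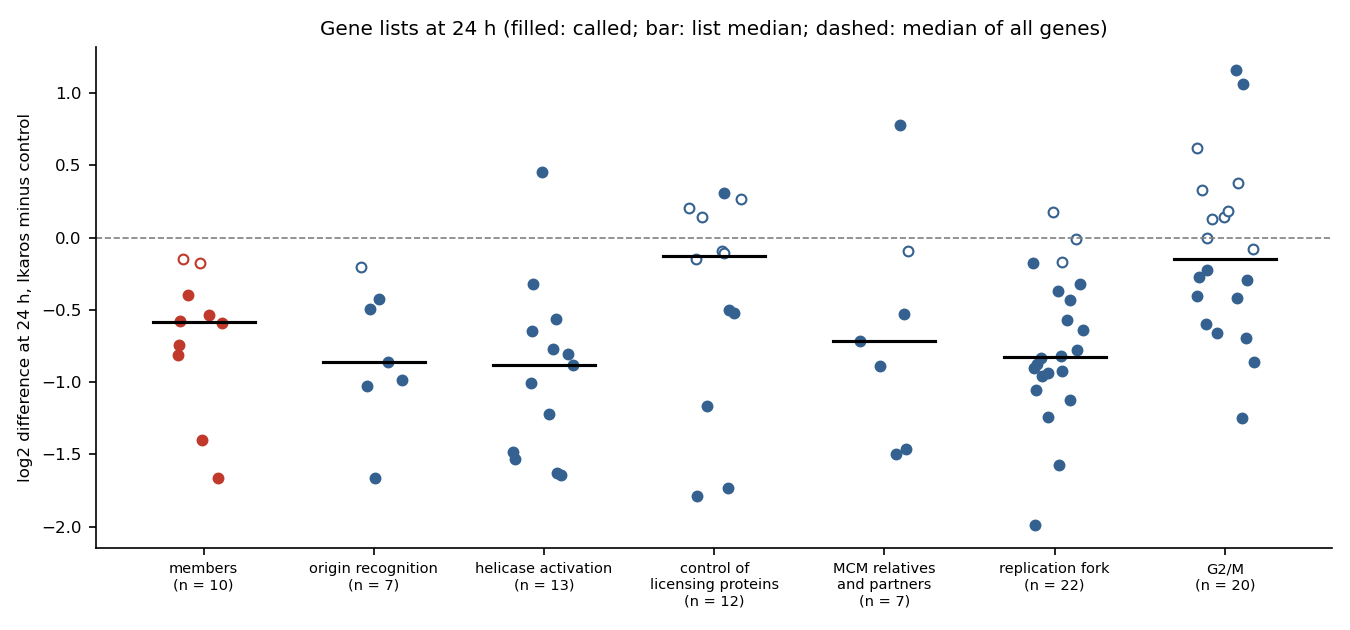
Log2 difference of Ikaros minus control at 24 h (vertical axis) for each gene of the licensing group (red) and of lists of its neighbours in the pathway (blue), with filled points for called genes, a bar for the median of a list and a dashed line for the median of all genes. Medians of the licensing genes (-0.58), origin recognition (-0.86), helicase activation (-0.88) and replication fork (-0.83) lie below those of the control of licensing proteins (-0.13) and G2/M (-0.15).

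Genes of the steps before and after loading were lower at 24 h as well, in the comparison that called 31.9% of all genes lower. Of 7 origin recognition genes 6 were lower and none higher, with a median of -0.86, and the lowest were Orc2 (-1.66), Orc1 (-1.03) and Orc6 (-0.99), subunits of the complex that binds origins. Of 13 genes of helicase activation 12 were lower and 1 higher, with a median of -0.88. Recql4 at -1.64, Wdhd1 at -1.63 and Donson at -1.53, which help to turn the loaded ring into a fork, differed most. Of 7 relatives and partners of the MCM proteins, 5 were lower and 1 was higher, Mcm3ap (0.78), whose products bind Mcm3 and export mRNA. Mcm8, a helicase paralog in DNA repair, was at -1.50, Lrr1, which helps to unload the helicase, at -1.46 and Mcmbp, an MCM-binding protein, at -0.89. The replication fork list had 19 of 22 lower and none higher.

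Of 12 measured genes that control licensing proteins, 5 were lower, 1 was higher and 6 did not pass, with a median of -0.13, where 31.9% of all genes were lower. Cyclin E, which drives entry into S phase, was lowest, with Ccne2 at -1.78 and Ccne1 at -1.73, and Dtl, the adaptor through which Cdt1 is destroyed in S phase, was at -1.16. Fbxo5 (-0.09), which restrains the ligase that destroys geminin, and Skp2 (0.21), a ligase subunit that targets Cdt1, did not pass. Of 20 G2/M genes 10 were lower, 2 higher and 8 not called, against the same share.

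The same lists were counted at other times, with no test of a difference between lists. At 18 h, where 29.2% of all genes were lower, origin recognition had 6 of 7 lower (median -0.62), helicase activation 7 of 13 lower and 1 higher (-0.37) and the replication fork 12 of 22 lower (-0.30), while the licensing genes had 3 lower, 2 higher and a median of 0.07. In the Ikaros line from 18 to 24 h, where 4.13% of all genes were lower, 1 of 7 origin recognition genes fell (median -0.15), against 8 of 13 for helicase activation (-0.64), 15 of 22 for the fork (-0.54) and 10 of 20 for G2/M (-0.43). At 6 h, 9 of 20 G2/M genes were higher and 1 lower with a median of 0.30, and origin recognition had 4 of 7 lower (-0.24), where 18.1% of all genes were higher and 19.2% lower.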

How the data were processed

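The authors aligned strand-specific paired reads to mm10 with TopHat2, counted them per gene with HTSeq, corrected GC content and gene length with cqn, and removed library preparation effects with ComBat. The deposited values were taken as log2 expression with a constant added, since the lowest value is 1, although the methods describe no shift. The base of the logarithm is not given in the header and is taken from cqn. No counts were used, so depth is unknown and precision is limited by 3 libraries per group. Adjustment before deposition may make standard errors too small.

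Groups came from the sample labels. One limma 3.58.1 model in R 4.3.3 (lmFit, contrasts.fit, eBayes) with a mean for each of 12 groups was fitted to all 12762 genes, with two-sided p-values adjusted by Benjamini-Hochberg over all of them and a threshold of 0.05. The scripts were checked on simulated data. The steps in the control line and the change from 18 to 24 h were added after values had been seen. According to the methods, the time course was repeated in separate culture batches to give the replicates, while the 0 h cells were obtained separately.

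In the labels a culture batch number is shared by both lines, which pairs control with Ikaros libraries. Checked over 18 pairs, the correlation across genes of the deviations from group means was -0.062 to 0.507 (median 0.127), above 0.1 in 12. The main fit had no block. Batch 2 held only 0 h libraries and batch 3 only later ones. A block contrast of a line with its own 0 h thus links the times through batches 1 and 4. Because the 0 h cells were obtained separately, these numbers are not shown to mean the same cultures at 0 h and later. The alternatives were this replicate block, a filter that left the 9571 genes above the 25th percentile by mean level, quantile normalization, trended robust eBayes, fits of only the groups compared, and fits without each replicate.

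The genes and lists were chosen with earlier results of these data known. Named were the 10 genes, Ikzf1, the 3 called genes with the largest difference at 24 h in each of 4 lists, and the 6 genes most correlated with the subunit mean. Others named with values (Ap4m1, Cops6, Fbxo5, Skp2, Mcm3ap and markers) were named after their values were seen. Gene positions are from GENCODE M21 on GRCm38, the build of mm10, and promoters from RefSeq on GRCm38.p6.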

Additional observations from a re-analysis of the deposited data

Results flagged for a closer look

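The following results were flagged because the difference between the lines itself changed between times. The rule was a limma contrast with adjusted p under 0.05 over all genes, and no explanation was tested. Passing was common for most of these contrasts. From 0 h, 29.7% of all genes were called at 12 h, 43.0% at 18 h and 48.4% at 24 h, against 1, 3 and 4 of the 10 licensing genes. From 2 h to 24 h it was 47.3% against 5 of 10, and from 18 h to 24 h 2.63% against 2 of 10. From 0 h to 12 h the difference of Cdt1 changed by 0.69, and from 0 h to 18 h by 0.80. From 0 h to 18 h that of Mcm10 changed by -0.56 and that of Cdc6 by -0.88. From 0 h to 24 h it changed by -0.85 for Mcm2, -0.76 for Mcm6, -1.21 for Mcm10 and -1.64 for Cdc6. From 2 h to 24 h it changed by -0.56 for Mcm6, -0.49 for Mcm7, -1.44 for Mcm10, -1.87 for Cdc6 and -0.69 for Gmnn. From 18 h to 24 h it changed by -0.65 for Mcm10 and by -0.79 for Cdt1.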

How the results depend on the processing

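Counts of called licensing genes depended most on the libraries used, and the replicate block raised several. Its contrasts of a line with its own 0 h link the times through batches 1 and 4 alone, which are not shown to be the same cultures at both times. With the replicate block 2 were called at 2 h in place of 0, 3 for the change from 0 h to 6 h in place of 0, 5 for Ikaros cells at 2 h against 0 h in place of 0, 5 at 18 h against 0 h in place of 3, 2 at 6 h against 2 h in place of 0, 5 for control cells at 6 h against 0 h in place of 0, and 6 for the change from 18 h to 24 h in place of 2; the pairing lost no call of a single gene. At 2 h the filter, quantile normalization and the trend and robust settings each gave 1 call. With only the groups compared, 0 were called at 6 h and 2 at 12 h between the lines, 0 at 6 h and 1 at 12 h for Ikaros cells against 0 h, 0 at 12 h against 6 h, and 0 for the change from 18 h to 24 h.

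Without 1 replicate the number called between the lines ranged from 0 to 1 at 2 h, 0 to 4 at 6 h, 2 to 3 at 12 h, 3 to 5 at 18 h and 3 to 8 at 24 h. For the change from 0 h it ranged from 0 to 1 at 12 h, 1 to 4 at 18 h and 2 to 6 at 24 h, and from 2 h to 24 h from 2 to 4. In Ikaros cells against 0 h the ranges were 0 to 1 at 2 h, 0 to 3 at 6 h, 1 to 3 at 12 h and 1 to 4 at 18 h. For the steps they were 0 to 3 at 12 h against 6 h, 0 to 1 at 18 h against 12 h and 0 to 8 at 24 h against 18 h. They were 0 to 1 for the change from 18 h to 24 h and 3 to 8 for the F test. Counts over all genes moved as well, from 6248 to 8054 between the lines at 24 h and from 28 to 849 at 24 h against 18 h. The share of all genes is not given here for the other fits without 1 replicate. It is also missing for the filter, quantile normalization, trend and robust settings, and fits of only the groups compared. Those counts cannot be read as particular to the licensing genes. By a common rule on the ratio to the main fit, 45 counts of licensing genes moved over all alternative fits and 178 did not. Of the counts over all genes, 69 moved and 154 did not.

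Of 57 calls of single genes, 20 were kept in all 8 alternative fits. Signs turned only in differences that were not called, where leaving out 1 replicate gave ranges on both sides of 0. Between the lines the range was -0.13 to 0.094 for Mcm2 at 12 h, -0.057 to 0.25 for Mcm2 at 18 h, -0.0412 to 0.0998 for Mcm3 at 18 h, -0.013 to 0.064 for Mcm6 at 0 h, -0.013 to 0.11 for Mcm10 at 2 h, -0.14 to 0.038 for Cdc6 at 0 h, -0.12 to 0.33 for Cdc6 at 6 h, -0.0905 to 0.23 for Gmnn at 2 h, -0.30 to 0.092 for Gmnn at 12 h. For Gmnn in control cells at 6 h against 0 h it was -0.00834 to 0.44. No cause of these shifts was tested.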
